A study of Mus musculus with 6 samples.

Results

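The genes described here are 40 genes of antioxidant defence and glutathione metabolism. They were chosen by name from the functions of their products, with earlier results of these data known. A gene was measured where a probe set (a group of short oligonucleotides that together read 1 transcript) carried its symbol and no other on the array's platform annotation. This held for 37 of the 40 genes, which had 66 probe sets, among 12393 genes and 22626 probe sets tested in all. The 5 probe sets of Prdx1 carry a further gene symbol, and Prdx5 and Prdx6 were listed on no probe set, so these 3 peroxiredoxins were not analysed here. Total RNA of skeletal muscle was read on 6 Affymetrix arrays, 1 per mouse. The animals were wild-type C57BL/6 mice, 1 month old per the labels, although the study's text calls them adult. The muscle of 3 mice (TFEB group) had received an intramuscular adeno-associated virus, AAV2.1, in which the broadly active CMV promoter drives murine Tfeb (Tcfeb), a transcription factor of lysosomal and metabolic genes. The muscle of the other 3 mice (GFP group) had received the same kind of vector with green fluorescent protein, so that virus and injection were shared by both groups and no uninjected muscle was compared. The question put to these genes was whether TFEB overexpression changed their transcripts in muscle.

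Glutathione, a small thiol peptide, is made by glutamate-cysteine ligase and glutathione synthetase, is used by glutathione peroxidases to reduce peroxides and by glutathione S-transferases to conjugate reactive compounds, and is restored by glutathione reductase. Thioredoxins with their reductases, peroxiredoxins, superoxide dismutases and catalase form parallel lines of defence, and metallothioneins bind zinc and copper through their cysteines. Many of these genes are targets of Nfe2l2 (the protein widely called Nrf2, which is a different gene from the nuclear respiratory factors), a factor held at low level by Keap1. In working muscle these enzymes handle superoxide and peroxide that arise in mitochondria and at membrane oxidases.

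Among the 37 measured genes, 6 of 10 glutathione S-transferases fell in TFEB muscle and both metallothioneins rose, while Nfe2l2 itself did not pass the test. The Mt1 call rests on 1 of its 2 probe sets, and the Mt2 call was kept in 8 of 15 alternative analyses. Of the 37 genes, 12 passed an adjusted p under 0.05 with a change of at least 1.5-fold (32.4%, against 13.5% of all 12393 genes). The 5 that rose were Gpx1, Txn1, Prdx2, Mt1 and Mt2, where 8.62% of all genes passed in that direction. The 7 that fell were Gclm, Gstk1, Gstm1, Gstm2, Gstm5, Mgst1 and Mgst3, where 4.9% of all genes passed. With no fold limit, 9 genes were higher and 9 lower, against 16.8% of all genes higher and 16.8% lower. The values of the groups did not overlap in 23 of the 37 genes (11 higher and 12 lower), and the same was so of 51.1% of all genes. The median log2 fold change of the 37 genes was 0.15, and that of all genes was -0.046. Log2 values are those deposited, each gene is given by its brightest probe set unless stated, and each change is TFEB minus GFP with its standard error (n = 3 arrays per group).

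GFP array 2 stood apart from the other controls. Between 725 and 844 probe sets differed more than 2-fold between it and the other GFP arrays, which differed from each other in 87, and the TFEB arrays differed from each other in 45 to 101. Its macrophage markers were high. As log2 deviations from their mean of 6 arrays, the 15 markers averaged -1.35 and -1.21 in GFP arrays 1 and 3, 0.81 in GFP array 2 and 0.072 to 0.87 in the TFEB arrays. In 9 of the 12 member genes past the threshold GFP array 2 deviated toward the TFEB values, as it did in 1140 of 1675 genes overall (68.1%). Without this array the count of member genes past the threshold was again 12, with 5 higher and 7 lower. Over all genes the count rose from 1675 to 2318. In bulk tissue, fewer cells of a type and less RNA per cell cannot be told apart, and for each gene below the part that other cells had in its change was not tested. The tissue label was borne out by muscle fibre genes, among them Acta1 at 14.34 to 14.37 and Ckm at 14.17 to 14.29 in every array. Both lay near the highest value of any array, 14.37. Of 14 such genes 0 passed the threshold, while 1 was higher and 2 lower with no fold limit. The groups did not overlap in any of the 14 (4 higher and 10 lower), whereas this held for 51.1% of all genes. The single probe set of Tfeb was lower in TFEB muscle (8.49, 8.47 and 8.58 in GFP, 7.92, 7.68 and 7.61 in TFEB, adjusted p = 0.0024). The sources do not say if this probe set reads the delivered cDNA, and the labels were not checked by it.

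**Figure D1:**
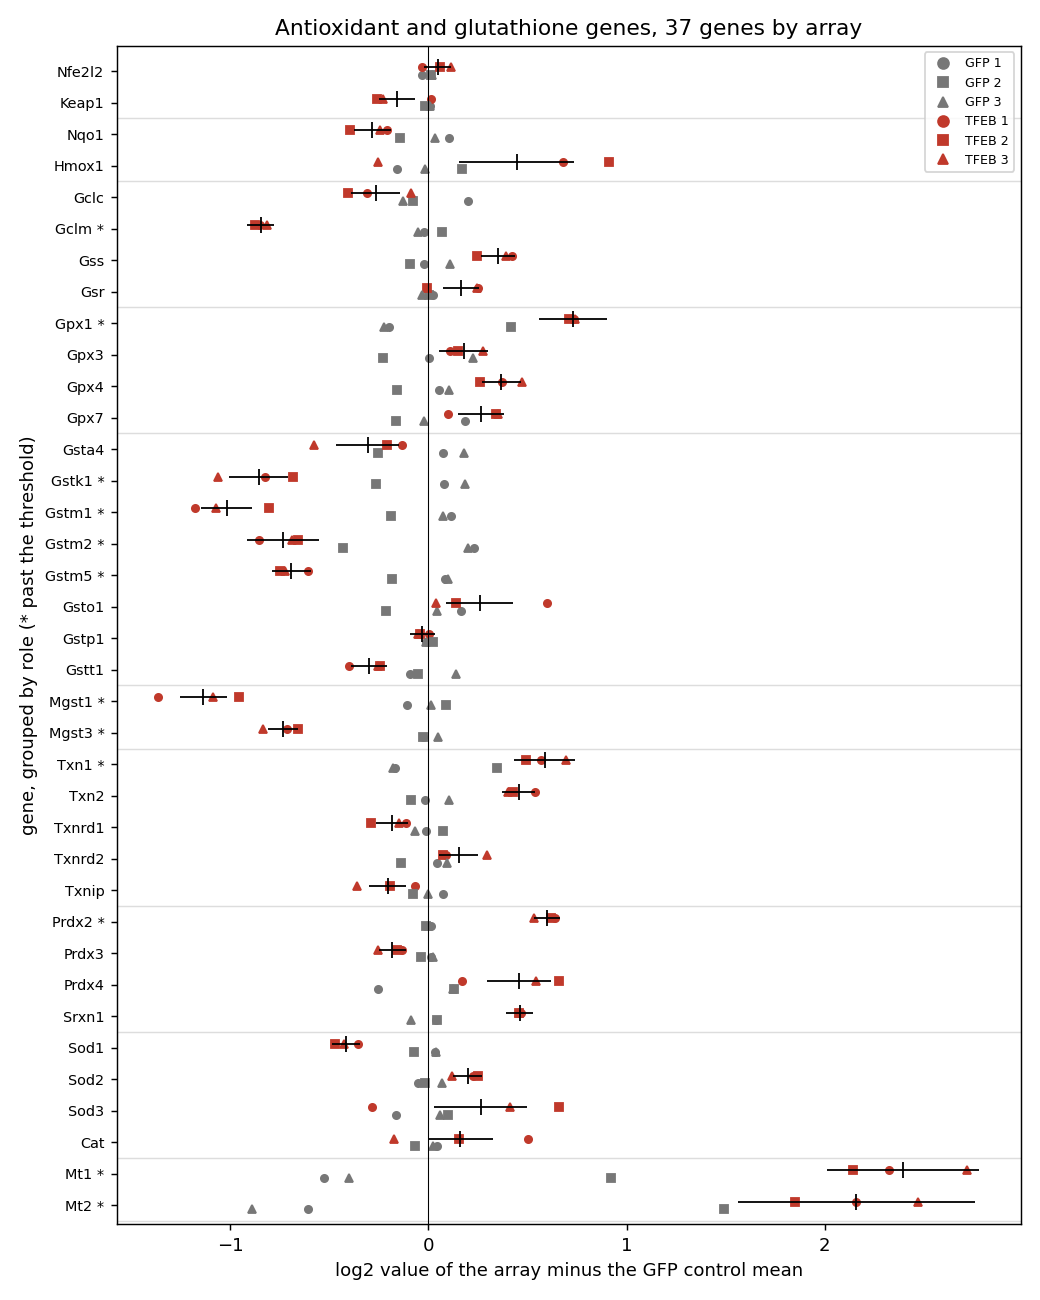
Deviation of each array from the GFP mean, in log2 units (x axis), for 37 antioxidant and glutathione genes by role (y axis), in grey for GFP, in red for TFEB and with marker shapes for replicates. Black ticks with bars give the log2 fold change ± SE, and asterisks mark the 12 genes past the threshold, of which the transferases lie left of 0 and Mt1 and Mt2 farthest right.

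The pathway's transcription factor and its sensor were examined first. Nfe2l2, the activator, read 9.25, 9.29 and 9.30 in the GFP arrays and 9.25, 9.34 and 9.40 in the TFEB arrays, a difference of 0.047 ± 0.070 (adjusted p = 0.63). The groups overlapped, and the 95% confidence interval of the log2 difference ran from -0.12 to 0.21. Keap1, the adaptor that directs Nfe2l2 to degradation, gave 2 answers. Its probe set of higher mean over the 6 arrays changed by -0.16 ± 0.09 (adjusted p = 0.22), with TFEB array 1 at 8.32 among the GFP values. In the GFP arrays alone this probe set was the dimmer of the 2, with a mean of 8.30 against 8.59. The other read 8.47, 8.73 and 8.57 in GFP and 7.23, 7.55 and 6.88 in TFEB, a fall of the log2 value by 1.37 in which every TFEB array lay below every control (adjusted p = 0.0024). Of their classical targets, Nqo1, a quinone reductase, changed by -0.28 ± 0.09 (adjusted p = 0.060). Hmox1, the inducible haem oxygenase that degrades haem, read 5.58, 5.91 and 5.72 in GFP and 6.42, 6.65 and 5.49 in TFEB. TFEB arrays 1 and 2 lay above all controls and TFEB array 3 below them, so the change of 0.45 ± 0.29 did not pass (adjusted p = 0.27), and without TFEB array 3 it was 0.80 (adjusted p = 0.017).

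In glutathione synthesis the regulatory subunit of the first enzyme fell. Gclm, the modifier subunit of glutamate-cysteine ligase, read 8.43, 8.52 and 8.40 in the GFP arrays and 7.60, 7.58 and 7.63 in the TFEB arrays. The groups were far apart beside a within-group SD of at most 0.064, and the value was 1.80-fold lower (adjusted p = 0.00073). The call was kept in the 15 alternatives at the 1.5-fold limit, with log2 changes between -0.91 and -0.78, and was lost at a limit of 2-fold. Gclc, the catalytic subunit, changed by -0.27 ± 0.12 (adjusted p = 0.14), and its TFEB array 3 at 7.37 lay within the control range. Gss, the synthetase of the second step, read 7.07, 6.999 and 7.20 in GFP and 7.51, 7.33 and 7.48 in TFEB. All TFEB values were above all controls, and the rise of 0.35 ± 0.09 passed the p limit but not the fold limit (adjusted p = 0.023). Gsr, the reductase that restores glutathione, changed by 0.16 ± 0.09 (adjusted p = 0.20), and its other probe set by -0.10 ± 0.06 (adjusted p = 0.25).

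All 4 glutathione peroxidases measured had positive log2 changes, and 1 passed both limits. Gpx1, the cytosolic and mitochondrial peroxidase of hydrogen peroxide, read 10.65, 11.26 and 10.62 in GFP and 11.58, 11.55 and 11.59 in TFEB, a 1.66-fold difference (0.73 ± 0.17, adjusted p = 0.020). The TFEB arrays were nearly equal, and the control nearest to them was GFP array 2. Without that array the change was 0.94 (adjusted p = 0.00031), and without any other single array it did not pass (adjusted p between 0.057 and 0.068). Gpx4, which reduces lipid peroxides in membranes, was higher by 0.37 ± 0.10 (adjusted p = 0.031) with no overlap of the groups, below the fold limit. Its other probe set was higher by 0.54 ± 0.12 (adjusted p = 0.014). Gpx3, the secreted peroxidase, changed by 0.18 ± 0.12 (adjusted p = 0.30), and Gpx7, an enzyme of the endoplasmic reticulum, by 0.27 ± 0.12 (adjusted p = 0.13). GFP array 2 was the lowest control for both.

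Of the 10 glutathione S-transferases among the members 6 fell past the threshold and 0 rose. With no fold limit 7 were lower. Their median log2 change was -0.71, with 9 of the 10 changes negative. Averaged over the 10 genes, the log2 deviation from the mean of 6 arrays lay between 0.13 and 0.38 for GFP and between -0.35 and -0.21 for TFEB, GFP array 2 being the lowest control. Outside the members the family was mixed, and Gsta2 rose past the threshold from dim GFP values (1.96 ± 0.19). Gstt3 (0.35), Mgst2 (0.31) and Gstt2 (0.016) had positive changes that did not pass. Gsta3 (-0.22) had a negative change that did not pass. Gstz1 was lower (-0.45 ± 0.14, adjusted p = 0.047), within the fold limit. Further mu genes are given with their cluster. The members are given by class below.

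The 3 members of the mu class all fell. Gstm1, a cytosolic conjugating enzyme, read 10.32, 10.01 and 10.28 in the GFP arrays and 9.03, 9.40 and 9.13 in the TFEB arrays. The highest TFEB value lay well below the lowest control, and the difference was 2.02-fold (-1.02 ± 0.13, adjusted p = 0.0024). All 4 of its probe sets were lower, with log2 changes between -1.10 and -0.58 at adjusted p between 0.0010 and 0.012, and 3 of them also passed the fold limit. Gstm2 read 9.21, 8.55 and 9.19 in GFP and 8.13, 8.33 and 8.30 in TFEB, 1.66-fold lower (-0.73 ± 0.18, adjusted p = 0.024). Here GFP array 2 lay nearer to the TFEB arrays than to the other controls. The change was -0.95 without it (adjusted p = 0.00052), and left out singly, every other array took the call with it (adjusted p between 0.058 and 0.082). Gstm5 read 10.91, 10.65 and 10.93 in GFP and 10.23, 10.09 and 10.11 in TFEB, 1.61-fold lower (-0.69 ± 0.10, adjusted p = 0.0036), with no overlap. The mu genes are close relatives whose transcripts share sequence, and the brightest Gstm1 probe set is of a kind that can bind other transcripts in part, so signal may be shared among them.

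The mu genes form a cluster on chromosome 3 of the mouse. In the RefSeq gene table of GRCm38.p6 their order is Gstm5, Gstm7, Gstm6, Gstm3, Gstm2, Gstm1 and Gstm4. All 7 log2 changes were negative. Gstm3 was lower (-0.26 ± 0.08, adjusted p = 0.044), within the fold limit, while Gstm7 (-0.057 ± 0.099), Gstm6 (-0.22 ± 0.09) and Gstm4 (-0.20 ± 0.10) did not pass at adjusted p of 0.68, 0.093 and 0.17. The fall past the threshold was thus seen in Gstm5 at one end of the cluster and in Gstm2 and Gstm1 near the other.

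Among the other classes, both microsomal transferases fell. Mgst1, a membrane enzyme that also reduces lipid peroxides, read 10.60, 10.80 and 10.73 in GFP and 9.35, 9.76 and 9.62 in TFEB. The groups lay well apart, and the 2.19-fold difference (-1.13 ± 0.12, adjusted p = 0.0014) was the largest fall among the 37 genes. Its other probe set, dim at 3.07 to 3.26, changed by -0.13 ± 0.06 (adjusted p = 0.15). Mgst3, its relative in leukotriene and peroxide metabolism, read 11.97, 11.97 and 12.05 in GFP and 11.29, 11.34 and 11.16 in TFEB, 1.66-fold lower (-0.73 ± 0.08, adjusted p = 0.0014). The dim second probe set of Mgst3 was lower as well (-0.49 ± 0.09, adjusted p = 0.0093). Gstk1, the kappa class enzyme of mitochondria and peroxisomes, read 9.79, 9.44 and 9.89 in GFP and 8.88, 9.02 and 8.65 in TFEB, 1.81-fold lower (-0.85 ± 0.15, adjusted p = 0.0068). The groups were apart, with GFP array 2 again the nearest control.

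The remaining transferases moved less. Gstt1, of the theta class, was lower (-0.30 ± 0.09, adjusted p = 0.046), within the fold limit. Gsta4, which conjugates the lipid aldehyde hydroxynonenal, changed by -0.31 ± 0.16 (adjusted p = 0.18) with overlapping groups. Gsto1, an omega class enzyme that reduces dehydroascorbate, was the member of positive sign (0.26 ± 0.17, adjusted p = 0.27), and its second probe set gave 0.030 ± 0.077. Gstp1, the pi class enzyme, read 12.53, 12.57 and 12.53 in GFP and 12.54, 12.50 and 12.49 in TFEB. Its change of -0.030 ± 0.063 (adjusted p = 0.74) did not pass, and its 95% confidence interval ran from -0.18 to 0.12.

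**Figure D2:**
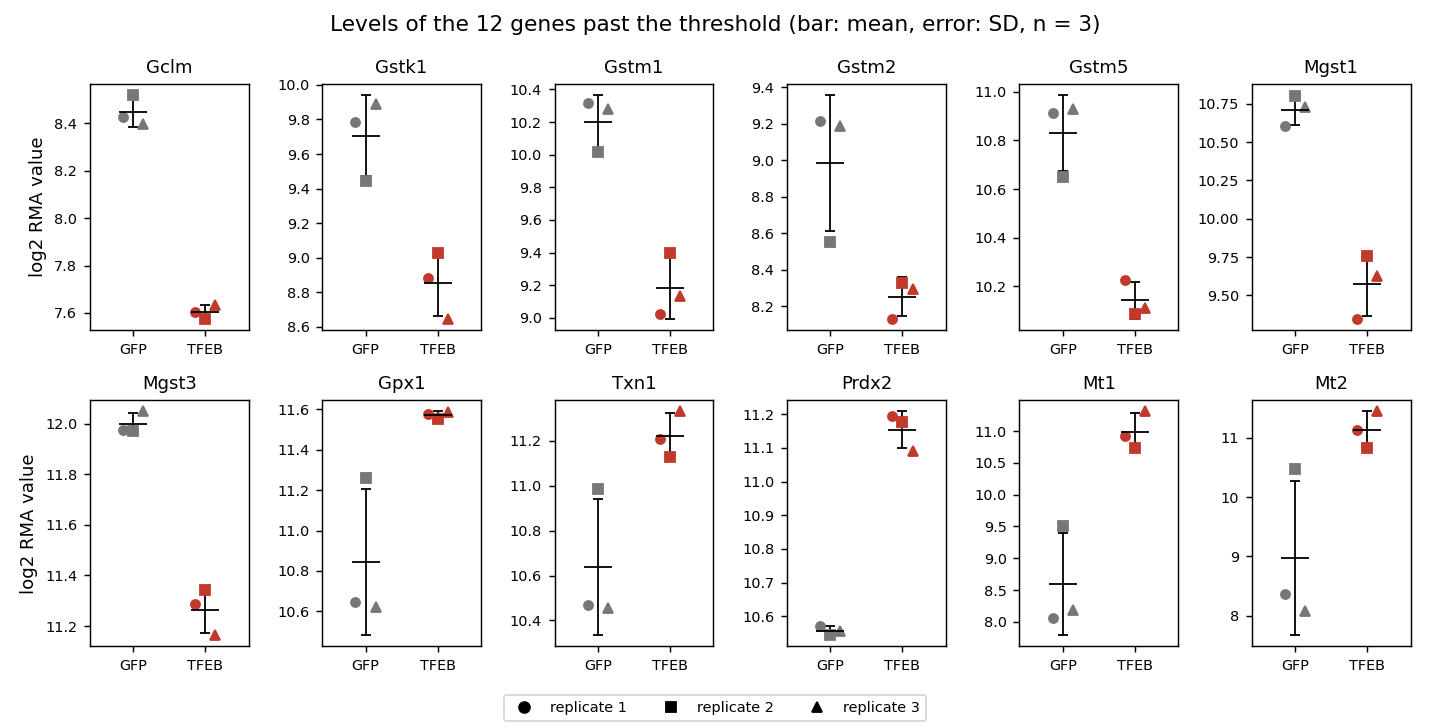
Log2 RMA value (y axis, scaled per panel) of the 12 genes past the threshold in GFP (grey) and TFEB (red) arrays, with marker shapes for replicates, black lines at the mean and error bars of 1 SD (n = 3). The groups are apart in all 12 panels, and the square of GFP array 2 sits toward the TFEB values in 9 of them, all except Gclm, Mgst1 and Prdx2.

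The start regions of 3 of the genes that fell are shown because they hold the letters of an antioxidant response element, the site that Nfe2l2 binds with small Maf proteins. Windows of 300 bases around RefSeq transcript starts (GRCm38.p6) were found for 34 of the 40 genes, in 41 windows. The letters searched were TGACNNNGC, on both strands, and 12.4% of all 32851 windows in the table hold them. Among the members 9 of the 41 windows, of 9 genes, had a match (Nfe2l2, Srxn1, Gstm5, Gclm, Prdx1, Mgst1, Mt2, Txnrd1 and Sod1). Of these genes Gclm, Gstm5 and Mgst1 were lower and Mt2 higher past the threshold. A second window of Mgst1 and further windows of Txnrd1 held no match. Such a match is a description of the letters. Capitals mark the match, which reads as its reverse complement where it lies on the opposite strand. The windows are chr3:122245307-122245606 for Gclm, chr3:107895604-107895903 for Gstm5 and chr6:138140277-138140576 for Mgst1, all on the plus strand.
Gclm: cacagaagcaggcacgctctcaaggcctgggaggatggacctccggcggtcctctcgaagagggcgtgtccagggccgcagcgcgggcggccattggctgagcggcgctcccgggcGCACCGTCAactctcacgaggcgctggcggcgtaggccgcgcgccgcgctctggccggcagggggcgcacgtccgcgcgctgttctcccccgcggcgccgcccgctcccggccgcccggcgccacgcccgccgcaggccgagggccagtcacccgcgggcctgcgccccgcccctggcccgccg
Gstm5: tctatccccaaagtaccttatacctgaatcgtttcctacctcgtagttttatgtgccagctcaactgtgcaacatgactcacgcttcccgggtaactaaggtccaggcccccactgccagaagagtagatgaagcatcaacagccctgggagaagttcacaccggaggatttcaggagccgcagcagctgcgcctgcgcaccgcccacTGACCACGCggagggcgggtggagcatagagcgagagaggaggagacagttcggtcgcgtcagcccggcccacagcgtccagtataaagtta
Mgst1: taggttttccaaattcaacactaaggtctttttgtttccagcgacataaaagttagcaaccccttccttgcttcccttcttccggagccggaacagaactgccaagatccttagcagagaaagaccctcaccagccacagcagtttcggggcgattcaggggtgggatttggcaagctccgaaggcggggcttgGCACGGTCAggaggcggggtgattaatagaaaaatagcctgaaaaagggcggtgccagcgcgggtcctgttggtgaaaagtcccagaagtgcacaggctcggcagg
The CACGTG letters of the E-box, the core of the sites that TFEB binds, were in 1 of the 41 windows, that of Prdx4, against 7.15% of all windows. Hmox1, Gclc, Gsr, Gsta4, Prdx6 and Sod3 had no window in the table.

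In the thioredoxin system the 2 thioredoxins were higher. Txn1, the cytosolic disulfide reductase, read 10.47, 10.99 and 10.46 in the GFP arrays and 11.21, 11.13 and 11.33 in the TFEB arrays. GFP array 2 lay closest to the TFEB values, and the 1.502-fold difference (0.59 ± 0.15, adjusted p = 0.029) sat at the fold limit. It was 0.76 without GFP array 2 (adjusted p = 0.0010) and lost the call without any other single array (adjusted p between 0.059 and 0.097). A dim second probe set of Txn1 gave -0.0088 ± 0.093. Txn2, the mitochondrial thioredoxin, was higher in all 3 of its probe sets by 0.40 to 0.51 log2 units, at adjusted p between 0.0047 and 0.0099. No TFEB array of Txn2 reached down to a control in any of them, and the changes stayed under the fold limit.

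The reductases and the inhibitor differed by probe set. Txnrd1, the cytosolic thioredoxin reductase, changed by -0.18 ± 0.08 in its brightest probe set (adjusted p = 0.12). The other probe sets of Txnrd1 were lower and passed (-0.96 ± 0.12 at adjusted p = 0.0023 and -0.72 ± 0.16 at adjusted p = 0.016), and in all 3 the TFEB arrays lay below the controls. Txnrd2, its mitochondrial counterpart, gave 0.15 ± 0.10 (adjusted p = 0.27) in the brighter and -0.52 ± 0.10 (adjusted p = 0.0099) in the other probe set. Txnip, which binds and inhibits thioredoxin, changed by -0.21 ± 0.10 in the brighter (adjusted p = 0.14). The second read 11.36, 11.02 and 11.26 in GFP and 10.37, 10.53 and 9.95 in TFEB, 1.90-fold lower (adjusted p = 0.0075) with the groups apart.

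Of the 4 peroxiredoxin and sulfiredoxin genes measured, Prdx2 passed both limits. Prdx2, a cytosolic peroxidase that uses thioredoxin, read 10.57, 10.54 and 10.56 in GFP and 11.19, 11.18 and 11.09 in TFEB, a tight pair of groups 1.51-fold apart (0.60 ± 0.07, adjusted p = 0.0016). The fold limit was missed without TFEB array 1 (0.58), with arrays shifted to equal medians (0.53) and with the probe sets of Prdx2 averaged (0.25). A second, dimmer probe set of Prdx2 gave -0.10 ± 0.07 (adjusted p = 0.34). Srxn1, the enzyme that repairs overoxidized peroxiredoxins, read 7.51, 7.52 and 7.39 in GFP and 7.94, 7.93 and 7.93 in TFEB. The TFEB arrays were nearly equal and all above the controls (0.46 ± 0.07, adjusted p = 0.0042), within the fold limit, and 2 of its 4 probe sets passed the p limit. Prdx4, the peroxiredoxin of the endoplasmic reticulum, changed by 0.46 ± 0.16 (adjusted p = 0.069), or 0.60 without TFEB array 1 (adjusted p = 0.035), and Prdx3, the mitochondrial one, by -0.18 ± 0.07 (adjusted p = 0.086).

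The dismutases and catalase had 0 of 4 genes past both limits. Sod1, the cytosolic copper and zinc dismutase, read 11.39, 11.29 and 11.40 in GFP and 11.01, 10.89 and 10.93 in TFEB. It was lower (-0.42 ± 0.07, adjusted p = 0.0068) with the groups apart, within the fold limit. Sod2, the mitochondrial manganese dismutase, was the one member whose probe sets were called in opposite directions by p. Its brightest gave 0.20 ± 0.07 (adjusted p = 0.080) and a second 0.39 ± 0.07 (adjusted p = 0.0086), while the dimmest read 7.64, 7.30 and 7.66 in GFP and 6.33, 6.34 and 5.98 in TFEB (-1.31 ± 0.14, adjusted p = 0.0016). A direction for Sod2 is therefore not given. Sod3, the extracellular dismutase, changed by 0.26 ± 0.23 (adjusted p = 0.41), with TFEB array 1 at 6.88 below and arrays 2 and 3 above the controls. Cat, the peroxisomal catalase, gave 0.16 ± 0.16 (adjusted p = 0.48), its TFEB arrays at 10.21, 9.86 and 9.54 spreading around the controls.

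**Figure D3:**
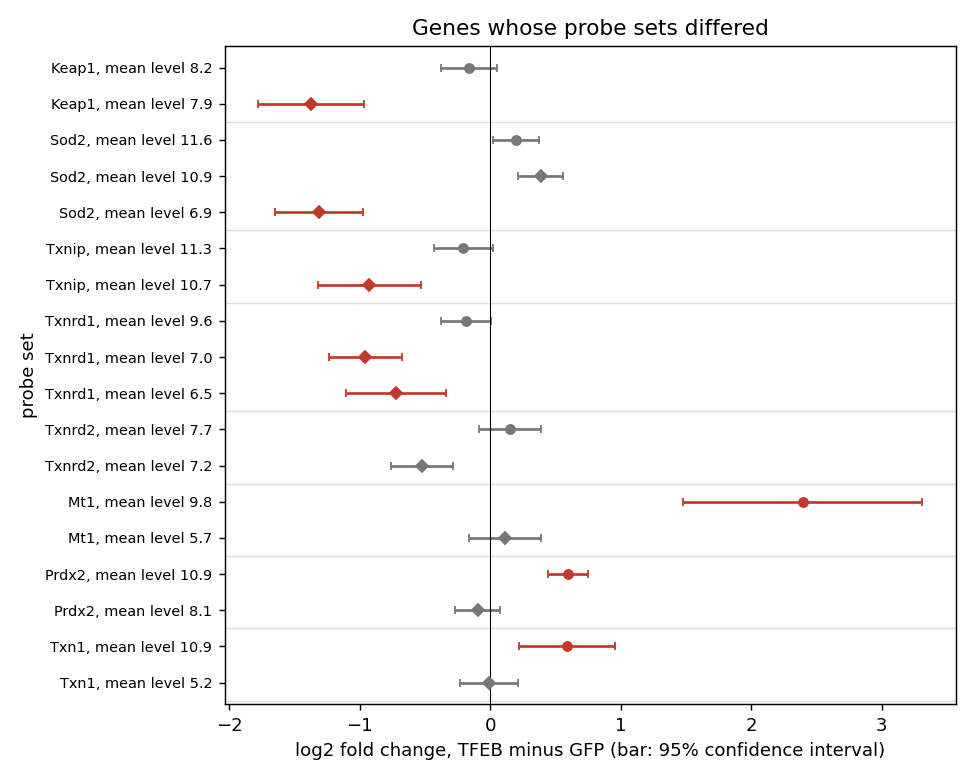
Log2 fold change with its 95% confidence interval (x axis) of each probe set (y axis, with its mean level) of 8 genes. Circles are each gene's brightest probe set, diamonds the others, and red marks those past the threshold, which for Keap1, Sod2, Txnip and Txnrd1 are not the brightest.

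Across the 21 members with more than 1 probe set, the call differed between probe sets in 10. In 4 genes (Keap1, Txnrd1, Txnip and Sod2) a dimmer probe set passed where the brightest did not, and in each of them it was lower. The transcripts or parts of transcripts that the separate probe sets read were not among the sources.

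The largest rises were those of the metallothioneins. Mt1 read 8.07, 9.51 and 8.19 in GFP and 10.92, 10.73 and 11.31 in TFEB, 5.26-fold higher (2.39 ± 0.38, adjusted p = 0.0053). All TFEB arrays lay over 1 log2 unit above GFP array 2 and over 2 above the other controls, and without GFP array 2 the change was 2.86. This probe set is of a kind that reads transcripts of several related genes. The other Mt1 probe set read 5.64, 5.55 and 5.72 in GFP and 5.64, 5.63 and 5.99 in TFEB (0.11 ± 0.12, adjusted p = 0.49), so that the rise attributed to Mt1 rests on the shared-sequence probe set. Mt2, with a single probe set, read 8.37, 10.47 and 8.08 in GFP and 11.13, 10.82 and 11.44 in TFEB, 4.47-fold higher (2.16 ± 0.60, adjusted p = 0.034). GFP array 2 lay just under the lowest TFEB value and 2.24 over the mean of the other controls. The change was 2.91 without it (adjusted p = 0.00018), and without any other single array the test was not passed (adjusted p between 0.070 and 0.11).

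Of their relatives Mt3, a metallothionein first found in brain, read 5.58, 6.46 and 5.71 in GFP and 8.61, 8.31 and 9.20 in TFEB (2.79 ± 0.30, adjusted p = 0.0015). It was higher in every TFEB array, and GFP array 2 was again the highest control. Mt4, known from stratified epithelium, gave -0.15 ± 0.47 (adjusted p = 0.82). The order of the cluster on chromosome 8 is Mt4, Mt3, Mt2 and Mt1 in the same RefSeq table, so the genes past the threshold were neighbours. Mt1 was among them only by its shared-sequence probe set, which may also read its relatives. Mtf1, the zinc-sensing factor that acts on metallothionein promoters, changed by -0.063 ± 0.11 (adjusted p = 0.69), and the zinc exporter Slc30a1 by 0.058 ± 0.093 (adjusted p = 0.66).

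The windows of Mt1 and Mt2 are shown for the core letters of the metal response element. The core was searched as TGCGCNC or TGCACNC on both strands. At least 1 is held by 25.7% of all windows, 2 or more by 7.11% and 4 or more by 0.517%. The Mt2 window held 4 and the Mt1 window 3. At least 1 was in 13 of the 41 member windows, of 12 genes. The window of Gclm, a gene that fell, also held 3, and the capitals in its sequence above mark the antioxidant response element instead. The windows are chr8:94172368-94172667 for Mt2 and chr8:94178839-94179138 for Mt1, both on the plus strand of GRCm38.p6 (RefSeq), with the core or its reverse complement in capitals.
Mt2: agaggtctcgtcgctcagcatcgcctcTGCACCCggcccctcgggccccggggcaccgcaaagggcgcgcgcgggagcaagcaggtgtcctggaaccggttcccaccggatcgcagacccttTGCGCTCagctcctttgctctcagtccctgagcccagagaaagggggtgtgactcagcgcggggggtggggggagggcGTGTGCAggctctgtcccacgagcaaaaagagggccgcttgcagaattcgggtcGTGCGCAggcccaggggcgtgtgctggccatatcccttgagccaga
Mt1: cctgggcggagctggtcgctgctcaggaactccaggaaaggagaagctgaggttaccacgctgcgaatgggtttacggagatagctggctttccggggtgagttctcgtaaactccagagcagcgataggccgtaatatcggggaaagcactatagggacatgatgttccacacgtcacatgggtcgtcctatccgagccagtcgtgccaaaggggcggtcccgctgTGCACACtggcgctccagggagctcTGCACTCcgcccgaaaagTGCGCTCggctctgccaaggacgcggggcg

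Cell type markers moved beside these genes. As deviations from their mean of 6 arrays, the metallothioneins averaged -1.70 and -1.78 log2 units in GFP arrays 1 and 3, 0.070 in GFP array 2 and 0.86 to 1.46 in the TFEB arrays, so GFP array 2 stood between the other controls and the TFEB group. The mean of the macrophage markers put GFP array 2 within the TFEB range, while for Cd68 it lay between the groups. Cd68, a lysosomal protein of macrophages, read 6.19, 8.34 and 6.46 in GFP and 9.63, 9.69 and 9.84 in TFEB, and Adgre1, a macrophage surface receptor, read 5.61, 8.31 and 5.71 in GFP and 7.74, 8.41 and 8.28 in TFEB. Of the 15 macrophage markers 1 passed, Cd68, with a median log2 change of 1.19. Endothelial markers (6 of 9 higher, first Pecam1 and Cdh5) and fibroblast markers (5 of 10 higher, first Col1a1 and Col1a2) rose with GFP array 2 at the low end of the controls. The endothelial mean deviation lay between -0.59 and -0.31 for GFP and between 0.32 and 0.54 for TFEB, and the fibroblast one between -0.73 and -0.58 for GFP and between 0.45 and 0.76 for TFEB. Satellite cell and myoblast genes had 3 of 6 higher, and of 9 neutrophil markers S100a8 and S100a9 rose, while 5 of the 9 had negative changes, the median was -0.069 and Camp was lower (-0.37, adjusted p = 0.016, within the fold limit). None of the adipocyte (0 of 5), Schwann cell (0 of 4) and lymphocyte (0 of 7) markers passed the threshold. Most adipocyte changes were still negative (4 of 5, median -0.74), and without overlap of the groups 2 were lower and 1 higher. The adipocyte mean deviation of GFP array 2 (-0.20) was the lowest control value and lay within the TFEB range (-0.51 to -0.095). The other controls stood at 0.21 and 0.78. All 4 Schwann cell changes (median -0.35) and 5 of 7 lymphocyte changes (median -0.11) were negative. Single control arrays weighed on both lists. For lymphocyte markers GFP array 2 had the highest mean deviation (0.71). GFP arrays 1 (-0.27) and 3 (-0.21) lay below every TFEB array (lowest -0.20, highest 0.023), so the lower TFEB mean rested on GFP array 2. For Schwann cell markers GFP array 3 was highest (0.645). GFP arrays 1 (-0.0052) and 2 (0.034) fell inside the TFEB range (lowest -0.50, highest 0.071). Among the members, Txn1, Gpx1, Mt1 and Mt2 lay 0.52, 0.63, 1.38 and 2.24 above the mean of the other controls in GFP array 2. The transferases Gstm5, Gstm1, Gstk1 and Gstm2 deviated there by -0.27, -0.28, -0.40 and -0.65, also toward the TFEB values, and Gclm, Prdx2, Txn2, Srxn1, Mgst1 and Mgst3 lay between -0.13 and 0.13 of it in that array. The part of these cells in the changes was not tested.

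**Figure D4:**
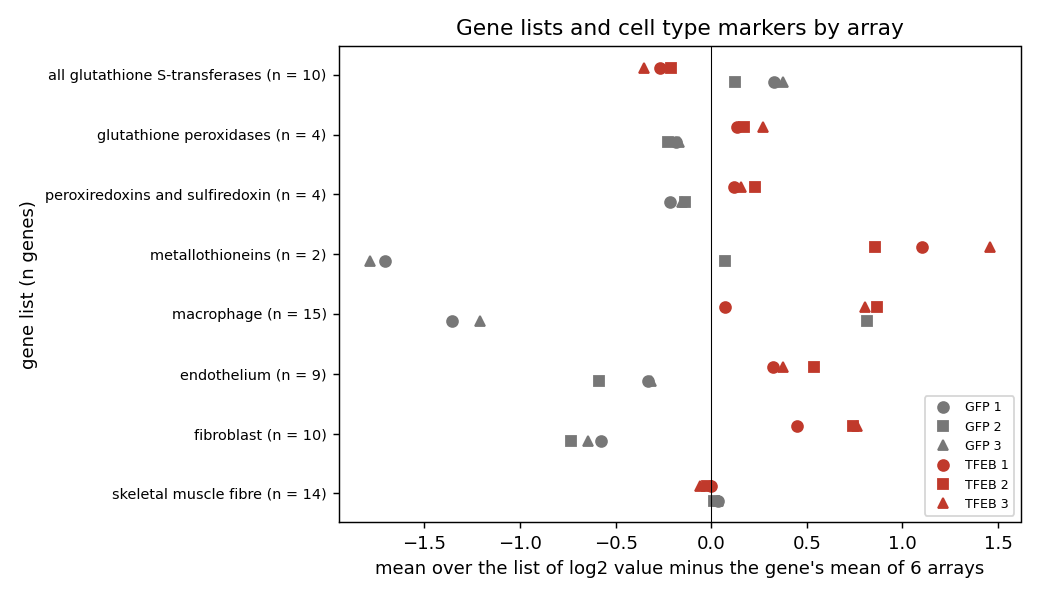
Mean over each gene list of the log2 value minus the gene's mean of 6 arrays (x axis) for member families and cell type markers (y axis, n genes), in grey for GFP and in red for TFEB. GFP array 2 (grey square) lies with the TFEB arrays for macrophage markers, between the groups for metallothioneins and on the control side of every TFEB array for the other lists shown.

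Genes of the same pathways outside the 40 were listed by role, and of 110 such genes 91 were measured. Of these 18 passed the threshold (19.8%), 13 higher and 5 lower, again beside 13.5% of all genes. Of the 10 partners and regulators of Nfe2l2 measured, Cul3, the ubiquitin ligase scaffold that works with Keap1, fell by 0.65 ± 0.12 (adjusted p = 0.0077), and the others did not pass. In other glutathione enzymes and transporters (26 genes, 3 higher and 1 lower), Gsta2, an alpha class transferase, rose from 3.55, 3.39 and 3.85 to 5.45, 5.29 and 5.93. This rise of 1.96 ± 0.19 (adjusted p = 0.0012) ran opposite to the mu class. The GFP values of Gsta2 were dim, with 2.20 the lowest value of any array. Gpx8, an enzyme of the endoplasmic reticulum, was higher by 0.95 ± 0.10 (adjusted p = 0.0013), and Chac1, which degrades glutathione, read 10.69, 10.01 and 10.25 in GFP and 8.68, 9.11 and 7.83 in TFEB (-1.78 ± 0.33, adjusted p = 0.0092). The third gene that rose was Ggt5, a gamma-glutamyl transferase.

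NADPH supply, on which both reductase systems depend, had 7 measured genes with 1 called in each direction. Pgd, a dehydrogenase of the pentose phosphate path, read 7.92, 8.39 and 8.03 in GFP and 10.02, 9.70 and 10.31 in TFEB (1.90 ± 0.18, adjusted p = 0.0012). Me1, the cytosolic malic enzyme, read 11.48, 11.18 and 11.35 in GFP and 10.14, 9.87 and 9.82 in TFEB (-1.39 ± 0.12, adjusted p = 0.00086). The groups were apart for both genes, which went opposite ways. Among further Nfe2l2 targets and haem and iron genes (13 measured), 4 rose and 2 fell, led by p by Akr1b8, an aldo-keto reductase (1.53 ± 0.18, adjusted p = 0.0021), and Nqo2, a quinone reductase (0.70 ± 0.10, adjusted p = 0.0032). Ephx1, the microsomal epoxide hydrolase (1.22 ± 0.17, adjusted p = 0.0033), and Blvrb, a biliverdin reductase, were the other genes that rose. The falls were Aox1, aldehyde oxidase (-0.74 ± 0.10, adjusted p = 0.0027), and Osgin1 (-0.95 ± 0.12, adjusted p = 0.0027). Genes known as Nfe2l2 targets were called in both directions, among the members as well as outside them.

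Sesn1 (0.65 ± 0.06) and Sesn3 (0.76 ± 0.08), sestrins of the stress response, were the 2 of 15 further thioredoxin, methionine sulfoxide and selenoprotein genes that passed. Of 8 oxidant-producing enzymes, Nox4, a hydrogen peroxide-producing oxidase (1.504 ± 0.17, adjusted p = 0.0018), and Maoa, monoamine oxidase A (0.87 ± 0.11, adjusted p = 0.0021), were higher. The phagocyte oxidase subunits did not pass. Cybb at 7.27, Ncf1 at 7.16 and Ncf4 at 7.54 were highest of all arrays in GFP array 2, whereas Cyba read 7.37, 9.58 and 7.38 in GFP and 9.55, 9.78 and 10.19 in TFEB (1.73 ± 0.59, adjusted p = 0.063). Of the 6 other antioxidants measured 0 passed the threshold, and 1 of 6 metal handling genes did, Mt3.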

How the data were processed

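RNA of 6 muscles was hybridised to 1 Affymetrix array each. The authors deposited 1 log2 value per probe set and array, for which affy and RMA stand in the submitters' processing notes without a version. RMA corrects background, sets the arrays to 1 distribution by quantile normalization and summarises probes, which can hide a shift shared by most transcripts. The values ran from 2.20 to 14.4 and array medians from 6.44 to 6.56. The number of arrays limits the precision. Each p-value sets the difference of the groups against the spread within them, which the fit draws toward that of all probe sets.

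Of 22690 probe sets 64 controls were left out. GEO's platform annotation gave 1 symbol to 20380 of the 22626 tested, several to 691 and none to 1555. The array values have no genome build, and coordinates come from the RefSeq tables of GRCm38.p6. The comparison used limma 3.58.1 under R 4.3.3 (lmFit, eBayes, two-sided), with Benjamini-Hochberg adjustment over all probe sets tested. The threshold, an adjusted p under 0.05 and at least 1.5-fold, follows a legend in the study, since no text of its array methods was at hand. A gene is given by its probe set of highest mean. The fit was tested on simulated data.

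The members, the lists and the tests were chosen with earlier results of these data known. All 40 members are named, and of the other pathway lists up to 2 genes of smallest p past the threshold in each direction. Gstm3, Gstm4, Gstm6, Gstm7, Mt4, Mtf1, Slc30a1, Ggt5, Ephx1, Blvrb, Camp, Cybb, Cyba, Ncf1 and Ncf4 were named after their values were seen. So were Gsta3, Gstt2, Gstt3, Gstz1 and Mgst2. The methods' t-test means Student's test, which the general statistics of the study name, and is not stated there for the arrays. Alternatives changed the normalization, the filter on dim probe sets, array weights, the test, the probe set rule and the fold limit, used the replicate number as a block or left out each array in turn. Probe-level files were not used, so no other background correction was run, and no slide or scan batch is known.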

Additional observations from a re-analysis of the deposited data

How the results depend on the processing

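With 3 arrays per group, members near the limits changed call most easily. Of the 12 members past the threshold, Gclm, Gstk1, Gstm1, Gstm5, Mgst1 and Mgst3 passed in all 15 alternatives at the limit of 1.5-fold. Leaving out each array in turn gave 1343 to 2318 genes past the threshold in the whole series. Of the members, 8 to 12 then passed it (2 to 5 higher, 6 to 7 lower), and 11 to 21 had an adjusted p under 0.05 alone. The number higher was 3 with arrays shifted to equal medians, 3 with probe sets averaged per gene (9 lower, Keap1 and Txnrd1 gaining calls at -0.76 and -0.62) and 2 by the methods' t-test (Student's, Benjamini-Hochberg adjusted), which left 11 at the p limit alone. Mt1 changed by 0.11 with no shared-sequence probe sets. A limit of 2-fold left 4 members (2 higher, 2 lower), 8 other pathway genes and 1031 probe sets. Signs turned, none past the threshold, for Cat without TFEB replicate 1 (between -0.0087 and 0.33 over the arrays left out) and with probe sets averaged (-0.029), for Txnrd2 (-0.18) and Sod2 (-0.24) with probe sets averaged, for Nfe2l2 with equal medians (-0.022) and for Gstp1 with arrays shifted to the median of the muscle fibre genes (0.031). The share of all genes past the threshold that were higher was 63.8%, or 54.2% with equal medians and 72.2% with the muscle fibre shift.

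The labels give replicate numbers and state no pairing of the samples. Deviations of same-numbered arrays from their group means correlated at 0.42, 0.17 and -0.23 across probe sets, which are not independent replicates. Those of arrays with unlike numbers correlated between -0.44 and 0.33. Deviations within a group are tied to each other, so these values cannot decide if arrays were paired. With the replicate block 10 members passed, 3 higher and 7 lower, and Txn1 (adjusted p = 0.057) and Mt2 (adjusted p = 0.057) lost their calls.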
